A study of Mus musculus with 48 samples.

Results

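Whole dorsal skin of C57BL/6 mice was compared between late anagen, the last stage of hair growth, and catagen, the stage in which hair follicles (HFs) regress. The comparison took in every library of the skin table labelled as dorsum in these stages, 3 from late anagen and 2 from catagen, which is 5 of the 48 samples of the series, and covered all 46983 annotated genes of the table, of which 16323 were expressed enough to be tested. The series profiled dorsal, ventral and chin skin at 6 consecutive hair cycle stages, with ear tissues besides, to ask how hair cycle signals differ between skin domains. All 5 mouse skins were wild-type as far as the labels go and carried no treatment or transgene, and each library was made by SMART-seq2, a full-length cDNA protocol, from total RNA of microdissected whole skin. The labels gave neither the age of the mice nor whether replicates came from separate animals. The p-values of this comparison therefore measure only a spread between libraries that may be technical, pooled within the stages of all 14 dorsal libraries. Values are FPKM, fragments per kilobase of transcript scaled to the mapped fragments of the library, and log2 fold changes are on the scale of log2(FPKM + 1), catagen minus late anagen, which understates changes of low genes. A gene was called where limma's Benjamini-Hochberg adjusted p over all genes tested was under 0.05.

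A growing HF is an epithelial tube whose base, the matrix, divides around a mesenchymal signalling centre, the dermal papilla (DP). Matrix progeny become the hair shaft, built of hair keratins and keratin-associated proteins, and the inner root sheath (IRS) that guides it, while melanocytes above the DP supply pigment. In catagen the matrix stops dividing, pigment production ends, the lower follicle is lost by apoptosis and the DP moves up to the stem cells of the bulge. FGF5 is a known signal for the end of anagen, and BMP and WNT ligands act as inhibitor and activator of hair growth.

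The summed levels of pigment and of cell cycle genes in the 2 libraries labelled catagen lay above late anagen, not below it as in this background. The melanocyte and pigment genes summed to 1251.05 and 1251.37 FPKM in the catagen libraries against 797 to 827 FPKM in late anagen, and to a mean of 59.1 FPKM in dorsal refractory telogen. Cell cycle genes summed to 1091 and 1145 FPKM against 821 to 848 FPKM, with a mean of 209 FPKM in refractory telogen. Such sums are weighted to abundant genes, and single members went both ways. Of 17 pigment genes 8 were called higher and 3 lower, and of 34 cell cycle genes 17 higher and 6 lower. The median log2 fold changes of the lists were 0.13 and 0.19, beside 0.04 for all genes tested. The skin identity itself was plain, with the basal keratin Krt14 at 2327, 2256 and 2301 FPKM in late anagen and at 1194 and 1147 FPKM in catagen. Catagen is therefore used below as the name on the label. In whole skin, fewer cells of a type and less RNA per cell cannot be told apart.

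The steps between low FPKM values, which correspond to single read pairs, gave a depth of about 13400000 to 16800000 read pairs for the late anagen libraries and of about 10100000 and 10300000 read pairs for the catagen libraries. Correlations of log2(FPKM + 1) were 0.98 between the 2 catagen libraries and 0.981 to 0.984 among the late anagen libraries. Across the stages they were 0.923 to 0.93, and the catagen libraries reached at most 0.935 with any of the other 12 dorsal libraries. Early anagen libraries lay further from the other stages, at 0.868 to 0.925. The catagen libraries differed from the rest in base composition, since the deviation of a gene from its mean over all dorsal libraries fell with its GC content in both (r = -0.398 and -0.397 across genes), against r of -0.12 to 0.23 in the other dorsal libraries.

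The change between the stages ran through most of the expressed genome. Of 16323 genes tested, 9483 passed an adjusted p of 0.05 (58.1%), with 4870 higher in catagen (29.8%) and 4613 lower (28.3%). Of these, 870 were more than 2-fold higher and 1274 more than 2-fold lower. The libraries of the 2 groups did not overlap in 11883 genes (72.8% of those tested). The median change over all genes tested was 0.04 on the log2 scale. With the values rescaled to TPM, 4162 genes were higher and 5138 lower, so that the balance of directions depends on the scaling. Because of these high shares, each count of genes given below is to be read against 58.1% called, 29.8% higher and 28.3% lower.

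**Figure D1:**
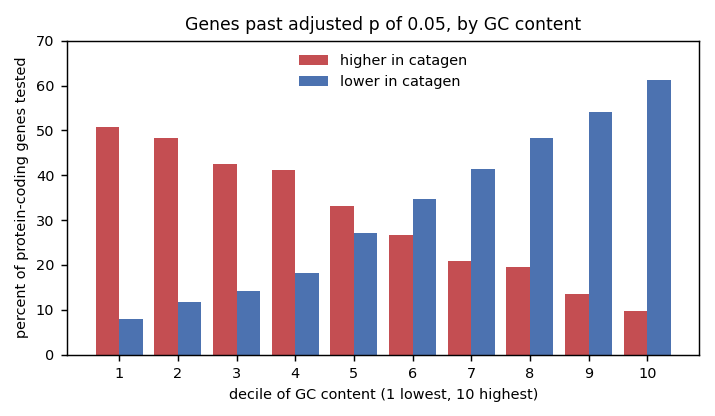
Percent of tested protein-coding genes that passed an adjusted p of 0.05 (vertical axis), higher or lower in dorsal catagen than in late anagen, in 10 equal bins of transcript GC content (horizontal axis). Genes of the lowest bin were higher in 50.8% and lower in 7.88% of cases, and genes of the highest bin were higher in 9.65% and lower in 61.2%.

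The direction of change moved with GC content. Across 13570 protein-coding genes, which are not independent replicates, the log2 fold change correlated with GC percent at r = -0.41 and with the logarithm of transcript length at r = 0.15. In the plot of calls by GC content, the share of genes that were higher fell from 50.8% to 9.65% between the extreme bins. The part of base composition in the results was not tested apart from a correction added after seeing the data, in which each library was adjusted for GC content and length. After it 8801 genes passed, of which 7071 also passed without it and 6999 kept their direction. For named genes that passed with or without it, the corrected value is given below where it ended or gave a call, turned a sign or moved the change by more than 1.5 times.

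The promoters of 4 keratin genes are shown first, because they belong to pairs whose members moved apart. Krt31 and Krt34, type I keratins of the hair shaft, lie close together in the keratin cluster of chromosome 11, and Krt71 and Krt25 are type II and type I partners of the IRS. The sequences are the 120 bases before the RefSeq start in GRCm38.p6, on the minus strand in each case, with the TATA motif TATAAA in capitals.
Krt31, chr11:100050552-100050671: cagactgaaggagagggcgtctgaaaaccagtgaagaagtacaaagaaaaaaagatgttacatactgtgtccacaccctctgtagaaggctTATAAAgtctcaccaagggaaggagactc
Krt34, chr11:100041555-100041674: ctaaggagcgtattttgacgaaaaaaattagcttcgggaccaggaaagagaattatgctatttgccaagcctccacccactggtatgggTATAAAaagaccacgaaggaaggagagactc
Krt71, chr15:101743098-101743217: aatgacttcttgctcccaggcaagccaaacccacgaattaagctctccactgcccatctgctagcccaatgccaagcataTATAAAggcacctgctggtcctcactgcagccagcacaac
Krt25, chr11:99322952-99323071: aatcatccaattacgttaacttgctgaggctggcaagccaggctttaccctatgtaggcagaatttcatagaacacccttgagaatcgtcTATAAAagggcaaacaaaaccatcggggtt
The motif, searched on both strands, began 29 bases before the start in Krt31 and 31 bases in Krt34, and 40 and 30 bases before it in Krt71 and Krt25. It was present in 11 of the 16 hair keratin and IRS genes with a promoter entry, and in 6.34% of all 32851 promoter windows of the same length. A global alignment of the Krt31 and Krt34 windows had 71 identical bases in 125 columns (56.8%), and that of Krt71 and Krt25 had 67 in 134 (50.0%). A match of letters is a description of the window and carries no measurement of these libraries.

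Hair keratins were more often lower than higher in catagen. Of 8 type I hair keratins 5 were lower and 1 was higher, and all 5 type II hair keratins in the table were lower. After GC and length correction 3 type I keratins were higher and 4 lower, with a median of -0.15 against -0.56 without it, and 3 type II keratins were lower. Krt31 was at 1801, 1678 and 1681 FPKM in late anagen and at 809 and 809 FPKM in catagen, a log2 fold change of -1.09 ± 0.07 (SE, adjusted p = 2.99e-07), or -0.60 after GC and length correction. Every catagen value lay below every late anagen value. Its neighbour Krt34 went the other way, from 494, 507 and 512 FPKM to 1086 and 1070.0 FPKM (log2 fold change 1.09 ± 0.05, adjusted p = 4.23e-08). Krt35, an early cuticle and cortex keratin, fell from 981, 916 and 900.2 FPKM to 366 and 381 FPKM (-1.32, adjusted p = 1.22e-07). Krt33a, the most abundant type I hair keratin of the list, had means of 2825 and 2677 FPKM and did not pass the test (-0.08, adjusted p = 0.358). After GC and length correction the value for Krt33a was 0.25 (adjusted p = 0.00226).

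Of the type II hair keratins, Krt83 had the largest change. It measured 936, 885 and 939 FPKM in late anagen and 79.7 and 94.4 FPKM in catagen, a 10.6-fold lower mean. Its log2 fold change was -3.39 ± 0.10 (adjusted p = 1.9e-09). The related Krt86 fell from 775 ± 36.1 FPKM (SD, n = 3) to 383 ± 20.8 FPKM (n = 2), by 1.01 on the log2 scale and by 0.46 after the correction. Krt84 was at 45.4 and 16.7 FPKM on average. Krt81 was lower by 0.54 on the log2 scale (adjusted p = 0.00332), a call that ended with GC and length correction (-0.02, adjusted p = 0.869). The median change of the type II hair keratins was -1.01, and -0.46 after that correction. Hair keratins are near-identical in places, and RSEM divides shared reads between them by estimate, so single members carry that uncertainty.

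In the IRS, 5 of 9 genes were lower and 3 were higher, and 3 each after GC and length correction. Krt71 stood at 10427, 10123 and 10438 FPKM in late anagen and at 2764 and 2819 FPKM in catagen, with a log2 fold change of -1.89 ± 0.06 (adjusted p = 1.54e-09). Krt73 was at 958 and 479 FPKM on average (-1.0, and -0.66 after the correction) and Krt74 at 4.15 and 1.35 FPKM. Krt25, in contrast, was at 2503, 2505 and 2588 FPKM in late anagen and at 3794 and 3649 FPKM in catagen (0.56 ± 0.06, adjusted p = 1.37e-05). Trichohyalin, Tchh, which hardens the IRS and medulla, rose from 1757 ± 116 to 2818 ± 55.1 FPKM (0.68, adjusted p = 4.45e-05). Krt71 and Krt25 thus differed in direction, with no overlap between groups in either. This holds for these genes and not for the type II and type I keratins of the IRS as groups.

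Keratin-associated proteins, which cross-link the keratins of the shaft, changed in both directions. Of 56 tested genes with a Krtap symbol, 15 were higher, 20 were lower and 21 did not pass, close to the share called among all genes, with 11 higher and 21 lower after GC and length correction. Krtap10-4 fell from 529, 503 and 488 FPKM to 147 and 153 FPKM (-1.74, adjusted p = 6.13e-08). Krtap16-1, Krtap13-1 and Krtap2-4 were lower by 1.74, 1.51 and 1.44 on the log2 scale. The most abundant member, Krtap7-1, had 15912, 15622 and 15950 FPKM in late anagen and 19553 and 18515 FPKM in catagen (0.27 ± 0.11, adjusted p = 0.0574). The summed level of the family was 82080 to 83778 FPKM in late anagen and 88930 and 91981 FPKM in catagen. Members of this family are also near copies of each other.

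All 4 tested keratins of the companion layer and outer root sheath were lower. Krt17 was at 4389, 4212 and 4545 FPKM in late anagen and at 1252 and 1228 FPKM in catagen (-1.82 ± 0.05, adjusted p = 6.51e-10). Krt75, the companion layer keratin, was at 238, 236 and 234 FPKM against 97.9 and 98.8 FPKM (-1.25, adjusted p = 4.58e-08). Krt6a was lower by 1.53 on the log2 scale and Krt16 by 0.66, and the latter was at -0.27 after GC and length correction. Krt6b was too low to be tested. In the plot of single genes by library, Krt17 lies lower in catagen as Krt71 does, while Krt25 and Krt34 lie higher.

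**Figure D2:**
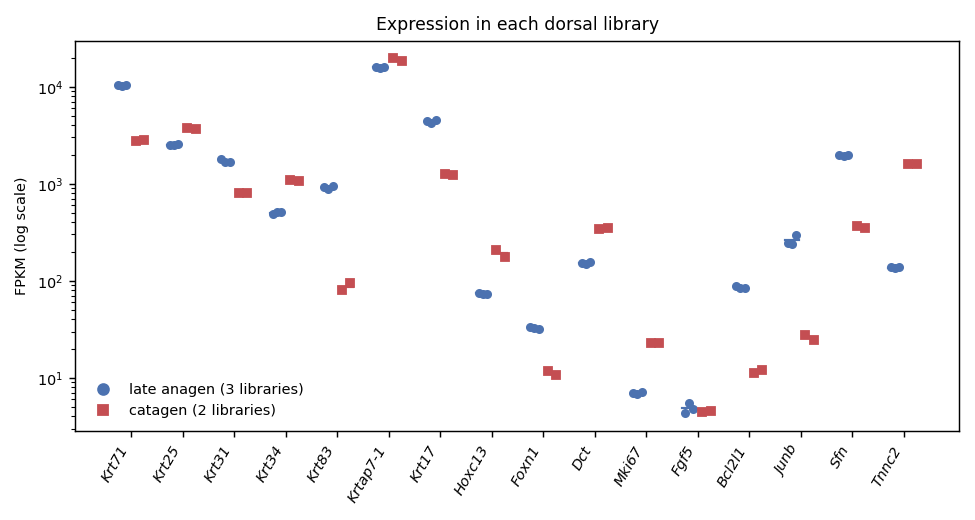
FPKM on a log scale (vertical axis) of 16 genes (horizontal axis) in each of 3 dorsal late anagen libraries (blue circles) and 2 dorsal catagen libraries (red squares), with short lines at the group means. Krt71, Krt31, Krt83, Krt17, Foxn1, Bcl2l1, Junb and Sfn lie lower in catagen, Krt25, Krt34, Hoxc13, Dct, Mki67 and Tnnc2 lie higher, and the groups overlap for Fgf5.

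The transcription factors that run the matrix and shaft programme did not move as a block, with 7 of 12 lower and 4 higher. Hoxc13, a direct activator of hair keratin genes, rose from 75.7, 73.7 and 72.8 FPKM to 208 and 178 FPKM (1.37 ± 0.09, adjusted p = 4.69e-07). Foxn1, the factor lost in nude mice, fell from 33.3, 33.0 and 31.9 FPKM to 11.8 and 10.7 FPKM (-1.46 ± 0.10, adjusted p = 5.44e-07). Msx1 and Gata3, the latter needed for the IRS lineage, were lower by 1.5 and 1.06, and Msx1 by 0.96 after GC and length correction. Msx2 was at 85.1 and 58.2 FPKM on average (-0.54, adjusted p = 3.63e-06). Trps1 was higher by 1.09, and by 0.54 after GC and length correction. Lef1, a WNT effector of the precortex, was at 39.8 and 49.0 FPKM (0.29, adjusted p = 0.0174), and did not pass without catagen replicate 2, without late anagen replicate 1 or after the correction (0.18, adjusted p = 0.0951).

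More pigment genes were higher than lower. Of 17 tested, 8 were higher, 3 were lower and 6 did not pass. Dct, which converts dopachrome in melanin synthesis, was at 153, 149 and 155 FPKM in late anagen and at 342 and 354 FPKM in catagen (1.19 ± 0.09, adjusted p = 1.46e-06). Ednrb, the endothelin receptor of melanocytes, rose from 19.5 ± 0.949 to 55.2 ± 0.891 FPKM (1.45), and Mlana from 225 ± 6.12 to 466 ± 9.54 FPKM (1.05). Rab27a, which moves melanosomes, was higher by 1.40. Tyr, the rate-limiting enzyme, was at 27.7, 30.4 and 30.5 FPKM against 38.1 and 40.4 FPKM (0.40, adjusted p = 0.0178), and its sign turned with GC and length correction (-0.13, adjusted p = 0.415). The melanosome matrix gene Pmel was lower, at 143 and 70.7 FPKM on average.

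Proliferation genes were more often higher than lower, with 17 of 34 cell cycle genes higher, 6 lower and 11 not past the test. Top2a, the topoisomerase of dividing cells, was at 32.7, 32 and 34.1 FPKM in late anagen and at 111 and 120.3 FPKM in catagen (1.78 ± 0.09, adjusted p = 4.3e-08). Mki67 was at 7.04, 6.87 and 7.2 FPKM against 23.0 and 22.8 FPKM (1.57 ± 0.06, adjusted p = 9.8e-09). The catagen libraries were more than 3-fold above late anagen in both genes. The replication helicase subunit Mcm3 rose by 1.46, but its partners Mcm2, Mcm5 and Mcm7 had changes of -0.07, -0.14 and -0.12 that did not pass, of which Mcm7 was at 0.18 and past the test after GC and length correction. Plk1 and Kif20a, kinase and motor of mitosis, were lower by 0.88 and 0.45, and Plk1 by 0.43 after GC and length correction. The list kept 17 higher and 6 lower members after GC and length correction.

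Of 19 cell death genes 8 were lower and 3 higher, with a share called (57.9%) close to that among all genes. After GC and length correction 7 were lower and 4 higher, and the median turned from -0.18 to 0.03. Bcl2l1, which encodes the survival protein Bcl-xL, fell from 88.1, 84.6 and 84.6 FPKM to 11.3 and 12.2 FPKM (-2.77 ± 0.08, adjusted p = 1.14e-09). Trp53 and its target Bbc3 were lower by 1.24 and 2.00, and Bbc3 by 1.29 after GC and length correction. Members that block death and members that drive it were thus both among the lower genes. Cdkn1a, the p21 cell cycle inhibitor, rose from 1050.3 ± 54.8 to 1368 ± 99.3 FPKM (0.38, adjusted p = 0.000408, and 0.74 after the correction), and Mcl1, another survival gene, by 0.90. Ngfr, the p75 receptor, was lower by 0.74, and by 0.21 after GC and length correction (adjusted p = 0.195).

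**Figure D3:**
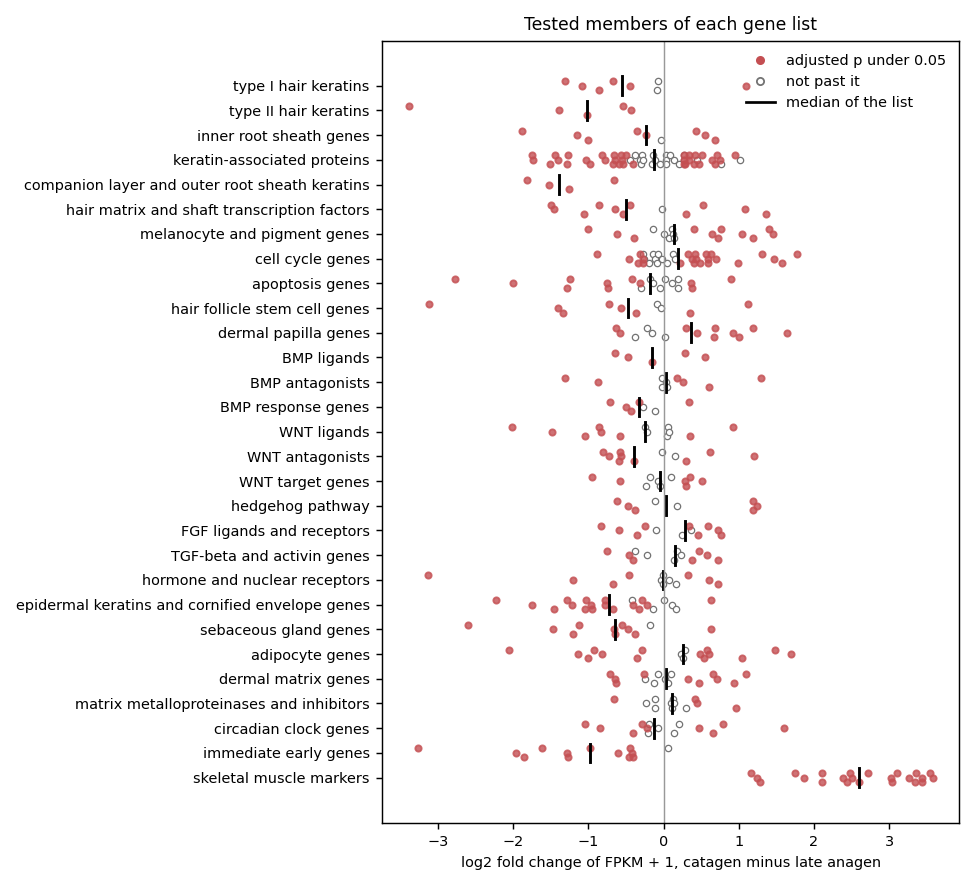
Log2 fold change of FPKM + 1, catagen minus late anagen (horizontal axis), of every tested member of 29 gene lists (vertical axis), with filled points past an adjusted p of 0.05 and bars at list medians. All 23 skeletal muscle markers lie above 1, 12 of 13 immediate early genes lie below 0 and passed, and most other lists span 0.

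HF stem cell genes were lower in 6 of 10 cases and higher in 2, and lower in 4 after GC and length correction. Tbx1 fell from 27.1, 27.6 and 34.4 FPKM to 1.98 and 3.11 FPKM (-3.13 ± 0.13, adjusted p = 1.22e-08). Krt15, the bulge keratin, was at 1291, 1269 and 1295 FPKM against 488 and 482 FPKM (-1.40, adjusted p = 1.15e-07). Lrig1 was lower by 1.34 and Cd34, a bulge surface marker, by 0.57. Foxc1, which keeps bulge cells quiescent, rose from 9.94 ± 0.443 to 22.9 ± 0.127 FPKM (1.13). Lgr5, the R-spondin receptor, was higher by 0.35, and by 0.10 after GC and length correction (adjusted p = 0.306). Sox9 was at 94.0 and 92.0 FPKM.

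Genes of the DP were higher in 8 of 14 tested cases and lower in 2. Rspo3, a secreted WNT amplifier, rose from 3.86, 3.82 and 3.98 FPKM to 14.9 and 13.7 FPKM (1.65 ± 0.11, adjusted p = 3.73e-07). Hhip, an inhibitor that binds hedgehog ligands, was at 1.54 and 4.82 FPKM on average (1.19, and 0.68 after GC and length correction). Corin, a DP protease, was at 1.73 and 3.37 FPKM (0.69, adjusted p = 0.000287). Prom1 was higher by 1.0 and Vcan by 0.93, and Vcan did not pass after the correction (0.42, adjusted p = 0.0853). Sox2 and Tbx18 were too low to be tested.

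Among BMP genes, all 5 ligands passed, 2 higher and 3 lower, while after GC and length correction 3 were higher and 1 lower and the median turned from -0.16 to 0.20. Bmp4 was at 29.8, 30.5 and 27.5 FPKM in late anagen and at 20.3 and 21.1 FPKM in catagen (-0.48 ± 0.08, adjusted p = 0.000457). Bmp2 was at 8.94, 8.47 and 9.42 FPKM against 14 and 13.3 FPKM (0.55, adjusted p = 0.000184). After GC and length correction Bmp4 was at -0.24 (adjusted p = 0.0267) and Bmp8a lost its call (-0.05, adjusted p = 0.593). Bmp6, at about 1 FPKM, was higher by 0.28 and by 0.77 after the correction, but lost its call in 4 of the 5 fits that left out 1 library. Of 10 antagonists 4 were higher and 2 lower. Fstl1 rose from 59.3 ± 2.89 to 147 ± 1.76 FPKM (1.3) and Nbl1 fell from 31.9 ± 0.493 to 12.3 ± 0.375 FPKM (-1.31, and -0.68 after the correction). Sostdc1 was at 106 and 105 FPKM. Of 7 response genes 4 were lower and 1 higher, and 2 were lower after the correction. The BMP targets Id1 and Id3 were lower by 0.43 and 0.49, and neither passed after GC and length correction (adjusted p = 0.323 and 0.411) or without catagen replicate 1 or 2. Bambi, a decoy receptor, was lower by 0.71.

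Of 13 tested WNT ligands 6 were lower and 2 higher, and 4 lower and 3 higher after GC and length correction. Wnt11 fell from 29.1, 25.7 and 33.9 FPKM to 6.4 and 6.68 FPKM (-2.01 ± 0.12, adjusted p = 1.46e-07). Wnt10a, a ligand of the placode and anagen matrix, was at 20.1, 18.6 and 22.7 FPKM against 6.88 and 6.5 FPKM (-1.48, and -0.76 after GC and length correction). Wnt7b was lower by 1.05, and by 0.49 after the correction. Wnt4 rose from 12.4 ± 0.65 to 24.4 ± 0.658 FPKM (0.92, adjusted p = 2.83e-07). Wnt5a, of the DP, was higher by 0.35, and by 0.04 after the correction (adjusted p = 0.726), and Wnt10b, at about 1 FPKM, did not pass (-0.22, adjusted p = 0.277). Of 11 tested antagonists 6 were lower and 3 higher, and 3 lower and 2 higher after the correction. Examples were Sfrp1 at 35.9 and 23.5 FPKM (-0.59), Kremen2 at 3.09 and 1.34 FPKM (-0.81, and -0.21 with adjusted p = 0.115 after correction) and Sfrp2 at 3.59 and 9.47 FPKM (1.21). Wif1 was higher by 0.29. Dkk1 was at or near 0 FPKM in the 5 libraries and was not tested. Among 11 tested WNT targets 4 were higher and 2 lower, and 3 each after the correction. The feedback gene Axin2 rose from 4.15 ± 0.235 to 6.34 ± 0.643 FPKM (0.51, and 0.77 after the correction), while Nkd1 was lower by 0.95. Notum, a secreted enzyme that inactivates WNTs, was lower by 0.58 (adjusted p = 0.0268), and at 0.02 after the correction (adjusted p = 0.949).

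In the hedgehog pathway 3 of 8 genes were higher and 3 lower, but after GC and length correction 4 were higher and 0 lower, with a median of 0.28 against 0.03. The receptor and target Ptch1 rose from 5.09, 5.14 and 5.36 FPKM to 12.5 and 13.8 FPKM (1.19 ± 0.09, adjusted p = 1.14e-06), and Gli3 by 1.25. Gli1, also a target, was lower by 0.62, and by 0.13 after GC and length correction (adjusted p = 0.315). The matrix ligand Shh was at 3.68, 2.91 and 3.41 FPKM against 3.74 and 4.05 FPKM (0.18, adjusted p = 0.165), and passed at 0.41 after the correction. FGF genes divided into 5 higher and 4 lower of 12, and 4 higher and 1 lower after the correction. Fgf5 was at 4.32, 5.54 and 4.8 FPKM in late anagen and at 4.43 and 4.51 FPKM in catagen. Its groups overlapped and the change was -0.10 ± 0.11 (adjusted p = 0.465). Fgf7, a DP ligand, was at 2.17 and 3.75 FPKM (0.59, adjusted p = 0.00947), with 0.34 after the correction (adjusted p = 0.123) and 0.51 without catagen replicate 1 (adjusted p = 0.0704), neither past the test. Fgf18 was at 1.5 and 2.20 FPKM (0.36, adjusted p = 0.168) and passed at 0.69 after the correction. Fgfr1 was lower by 0.83 and Fgfr2 higher by 0.34.

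TGF-beta and activin genes were higher in 4 and lower in 3 of 12 cases. Tgfb1 was at 1.09 and 0.605 FPKM (-0.38, adjusted p = 0.122) and Tgfb2 at 2.33 and 2.78 FPKM (0.18, adjusted p = 0.271), so that neither ligand passed. Tgfb3 was lower by 0.76, Smad4 was higher by 0.72, and the receptor Tgfbr1 was higher by 0.58, and by 0.17 after GC and length correction (adjusted p = 0.0587). Among 12 hormone and nuclear receptors 3 were higher and 4 lower, and 6 were lower after the correction. The retinoic acid receptor gamma gene, Rarg, fell from 42.0, 40.8 and 39.3 FPKM to 3.29 and 4.24 FPKM (-3.14 ± 0.11, adjusted p = 5.43e-09). Rara was lower by 1.2, and by 0.65 after the correction. Vdr, needed for postnatal cycling, stayed at 34.8 ± 0.702 and 34.5 ± 0.544 FPKM. Nr3c1, the glucocorticoid receptor, was higher by 0.72, and by 0.31 after the correction.

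Epidermal keratins and cornified envelope genes were largely lower, with 16 of 22 lower and 1 higher. Whole skin does not show whether their RNA came from inside or outside the follicle. Lor, the main protein of the cornified envelope, fell from 483, 504 and 533 FPKM to 111 and 103 FPKM (-2.23 ± 0.30, adjusted p = 8.57e-05). Krt5 and Krt14, the basal keratins, were lower by 1.04 and 0.97, and by 0.54 and 0.50 after GC and length correction. Krt10, the suprabasal keratin, had means of 407 and 369.8 FPKM and did not pass. Sprr1b was lower by 1.46 and Casp14 by 1.29. Among the keratinocyte markers 4 of 6 were lower and 1 higher, and their summed level was 3784 to 3869 FPKM in late anagen against 2134 and 2171 FPKM in catagen. The part of keratinocyte content in the results on epithelial genes was not tested.

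Sebaceous gland genes were lower in 9 of 11 cases and higher in 1. Mc5r, the melanocortin receptor of sebocytes, fell from 11.1, 10.2 and 11.9 FPKM to 0.98 and 0.99 FPKM (-2.60 ± 0.16, adjusted p = 1.79e-07). Cidea, Awat2 and Far2, which handle lipid droplets and wax esters, were lower by 1.48, 1.2 and 1.12. The most abundant member, Elovl3, was at 194 and 172 FPKM and did not pass (-0.18, adjusted p = 0.153). Adipocyte genes divided evenly, with 7 of 17 higher and 7 lower. The secreted Retn was at 43.9, 36.9 and 38.1 FPKM against 129 and 131 FPKM (1.70, adjusted p = 2.32e-07), and Car3 rose by 1.48. The lipase genes Lipe and Pnpla2 were lower by 2.05 and 1.13, the latter by 0.63 after GC and length correction.

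Dermal matrix genes were higher in 6 and lower in 4 of 16 cases, and lower in 2 after GC and length correction. Postn, a matricellular protein of the dermis, rose from 19.2, 18 and 19.0 FPKM to 42.5 and 39.5 FPKM (1.09, and 0.62 after GC and length correction). Col6a3 was higher by 0.94 and Col6a1, a partner chain of the same collagen, was lower by 0.72, and by 0.33 after the correction. Sparc, the most abundant member, was at 716 and 656 FPKM (-0.13, adjusted p = 0.107). Of 12 matrix metalloproteinases and inhibitors 3 were higher and 1 lower, and after the correction 6 were higher and 1 lower. Mmp3 rose from 3.29 ± 0.396 to 7.35 ± 0.933 FPKM (0.96) and Mmp14 was lower by 0.66, and by 0.32 after the correction.

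Markers of skeletal muscle, which lies beneath the dermis, rose together. All 23 markers tested were higher, with a median change of 2.60. Tnnc2, fast troponin C, was at 137, 135 and 138 FPKM in late anagen and at 1613 and 1596 FPKM in catagen (3.54 ± 0.13, adjusted p = 7.47e-09). Mb, myoglobin, was at 9.29, 7.32 and 7.03 FPKM against 111 and 99.3 FPKM (3.58 ± 0.11, adjusted p = 2.28e-09). Ttn, titin, was at 3.66, 5.49 and 5.09 FPKM against 60.2 and 61.5 FPKM. The fast myosin heavy chains Myh1, Myh2 and Myh4 were higher by 3.44, 3.35 and 3.34, and the muscle respiratory subunit Cox6a2 by 3.36. Across stages the summed level of the list ran from 711 to 739 FPKM in late anagen and 4895 and 5062 FPKM in catagen to a mean of 10354 FPKM in early anagen, so that late anagen had the lowest level of the 6 dorsal stages. The part of muscle in the other results was not tested.

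**Figure D4:**
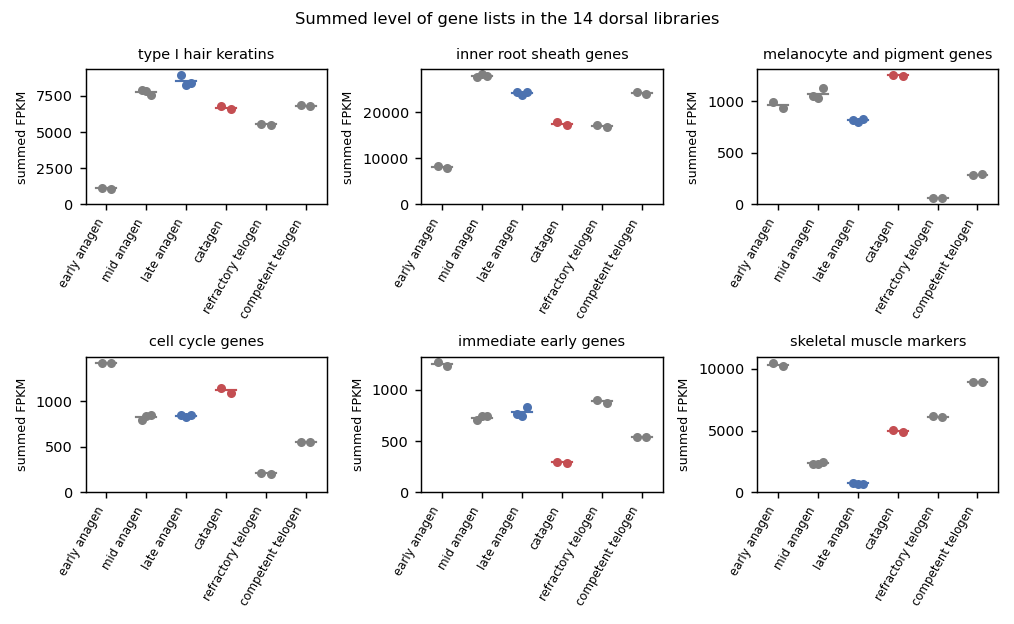
Summed FPKM (vertical axes) of 6 gene lists in each of the 14 dorsal libraries, by stage label in the order of the cycle (horizontal axes), with lines at stage means, late anagen in blue and catagen in red. Pigment and cell cycle genes are higher in catagen than in late anagen and lowest in refractory telogen, immediate early genes are lowest in catagen, and skeletal muscle markers are lowest in late anagen.

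Other cell types moved less. Of 14 tested macrophage markers 4 were higher and 5 lower, with Mrc1 up by 1.29 and C1qa down by 1.63, and the list summed to 189 to 190.1 FPKM against 166 and 169 FPKM. Of 7 tested T cell markers 1 was higher and 4 were lower, while Cd4 and Cd8a were at or near 0. Mast cell markers had 2 higher and 1 lower of 4, and neither of the 2 tested neutrophil markers passed, though both were lower after GC and length correction, and Ly6g and Mpo were at 0. Of 9 endothelial markers 4 were higher, with Vwf up by 1.07, and 1 was lower, the fenestral diaphragm gene Plvap at 24.4 and 1.67 FPKM. Of 9 smooth muscle markers 2 were higher and 2 lower, with 5 higher after GC and length correction, and of 5 erythrocyte markers 2 were higher. Cd74, the invariant chain of antigen-presenting cells, fell from 201, 203 and 213 FPKM to 19.5 and 17.7 FPKM (-3.40 ± 0.10, adjusted p = 1.4e-09).

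Immediate early genes, whose transcription responds to signals within minutes, were lower in 12 of 13 cases with none higher, a median of -0.98. Junb was at 247, 242 and 296 FPKM in late anagen and at 27.8 and 24.6 FPKM in catagen (-3.27 ± 0.08, adjusted p = 5.5e-10). Egr3 went from 3.05 ± 0.197 FPKM to 0.08 and 0 FPKM, and Ier2 and Jun were lower by 1.86 and 1.61. Fos and Egr1 were lower by 0.42 and 0.46, and after GC and length correction by 0.21 and 0.07, the latter no longer past the test (adjusted p = 0.247). Atf3 did not pass (0.06), and was at 0.29 (adjusted p = 0.049) after the correction. After the correction 9 members were lower and 1 higher, with a median of -0.51. Clock genes were higher in 4 and lower in 5 of 14 cases, with Per3 at 5.12 and 17.5 FPKM (1.6), Bhlhe41 at 17.6 and 7.94 FPKM (-1.05) and Nr1d1, the REV-ERB alpha gene, at 8.67 and 4.41 FPKM (-0.84, and -0.35 after the correction). The time of day of sampling was not in the labels.

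Mitochondrially encoded genes were higher in 13 and lower in 1 of 24 tested cases, with a median of 1.13. After GC and length correction 8 were higher and 2 lower, with a median of 0.53. Their summed level was 35401 to 45653 FPKM in late anagen and 77556 and 86551 FPKM in catagen. The complex I gene mt-Nd2 rose from 694, 707 and 734 FPKM to 1942 and 2095 FPKM (1.5, adjusted p = 2.49e-08). The most abundant, mt-Atp6, was at 12897 and 20129 FPKM on average (0.65, adjusted p = 0.00363), and at 0.12 after GC and length correction (adjusted p = 0.477). Of the mitochondrial tRNA genes, mt-Ta and mt-Tt were higher and mt-Tp lower, but each was listed at 0 in 2 or more of the 5 libraries. The calls of mt-Ta and mt-Tt ended with the correction (adjusted p = 0.0713 and 0.0603).

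Among the single genes with the largest falls, Krt80, an epithelial keratin, went from 51.1, 52.9 and 54.1 FPKM to 0.24 and 0.86 FPKM (-5.14 ± 0.15, adjusted p = 1.54e-09). Lypla2, a depalmitoylating enzyme, went from 94.1, 85.5 and 90.1 FPKM to 1.77 and 2.77 FPKM (-4.81 ± 0.15, adjusted p = 1.77e-09). Lars2, the mitochondrial leucyl-tRNA synthetase gene, was at 7748, 7792 and 7574 FPKM against 340.4 and 444 FPKM, and reached 4014 to 8991 FPKM on average in the other dorsal stages. Cited4, Rab1b, Cebpb and Nrarp, the latter a Notch feedback gene, were lower by 3.55, 3.55, 3.47 and 3.34. Rps12 and Styx were listed at 0 in both catagen libraries, with means of 133 and 11.7 FPKM in late anagen. Since Rps12 encodes a ribosomal protein that every cell uses, an exact 0 there may be a failed estimate, and fitted differences of this gene are no measure of a fold. The clone-named gene AC154540.1 was also listed at 0 in both catagen libraries. In the other direction AC099934.1 had 342 and 247 FPKM against 0, 0 and 25.8 FPKM. AC099934.2, AC156953.1 and AC157822.2, which carry the same values in every one of the 5 libraries, had 54.8 and 18.9 FPKM in catagen and were listed at 0 in late anagen. All of these AC-named genes span fewer bases than the mean fragment, estimated at 170 to 200 bases in these libraries, so their FPKM are unreliable. RP23-396C19.6 was at 22.5 and 6.01 FPKM against a highest late anagen value of 0.24 FPKM.

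The study's putative activators and inhibitors of hair growth, which it had picked from a separate whole-skin microarray time course that ran through catagen, moved in both directions. Of 224 tested activators 94 were higher and 44 lower, with a median change of 0.17. Kif2a, a member of the inhibitors, and Mef2c, a member of the activators, were higher by 2.01 and 1.82. Among the activators H2afx and Pkmyt1 fell by 2.60 and 1.70, and B2m, the most abundant, from 1232 ± 42.5 to 741 ± 9.89 FPKM (-0.73, and -1.10 after GC and length correction). Of 119 tested inhibitors 42 were higher and 50 lower, with a median of -0.10. Sfn, the epithelial 14-3-3 sigma gene, was at 1998, 1955 and 1985 FPKM against 367 and 351 FPKM (-2.46 ± 0.05, adjusted p = 1.25e-10). Pla2g2e was lower by 1.84 and Hspb1 by 1.44, the latter by 0.94 after the correction. These medians stand beside 0.04 for all genes tested.

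The dorsal change was then set against the change between the same stages in ventral and chin skin, each with its own late anagen libraries. In the fit of all 43 skin libraries, the dorsal change passed in 8379 of 16323 genes (51.3%). The ventral change passed there in 1379 of 16334 genes (8.44%) and the chin change in 3067 of 16560 (18.5%). The difference of the dorsal from the ventral change passed in 5334 of 17489 genes (30.5%), and that from the chin change in 7398 of 17656 genes (41.9%). The dorsal catagen libraries enter both differences. The first catagen library of the ventral group has an ear location among its labels, against its title, and without it the difference from the ventral change passed in 4265 genes.

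**Figure D5:**
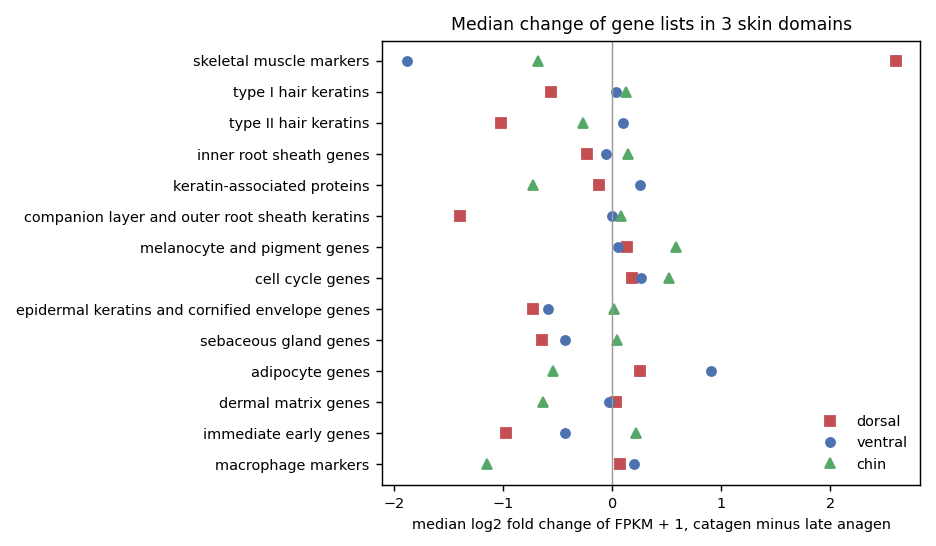
Median log2 fold change of FPKM + 1, catagen minus late anagen (horizontal axis), of 14 gene lists (vertical axis) in dorsal (red squares), ventral (blue circles) and chin skin (green triangles). Skeletal muscle markers have medians of 2.60, -1.88 and -0.68, and hair and outer root sheath keratins lie lower in dorsal skin than in the other domains, apart from the keratin-associated proteins, which lie lowest in chin.

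Skeletal muscle gave the widest gap between domains. All 23 markers differed from the ventral and from the chin change, with medians of 2.60 in dorsal, -1.88 in ventral and -0.68 in chin skin. Tnnc2 went from a mean of 317 to 68.3 FPKM in ventral skin and from 1767 to 945 FPKM in chin skin, so that it fell where the dorsal level rose (dorsal minus ventral 5.74 ± 0.36, adjusted p = 1.34e-12). Hair and sheath keratins also differed. Krt71 had changes of 0.12 in ventral skin, not past the test, and of 0.50 in chin skin, and the dorsal change lay lower by 2.01 and 2.38 (adjusted p = 6.41e-10 and 1.51e-11). Krt17 differed by -1.59 and -2.08 and Krt83 by -3.24 and -3.71. Krt34 rose in ventral skin (0.56) and fell in chin skin (-0.96), against which the dorsal rise was larger by 0.53 (adjusted p = 0.0105) and 2.06 (adjusted p = 4.19e-11). Of 56 Krtap genes 30 were lower and 0 higher in chin skin, and 4 were lower and 5 higher in ventral skin.

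Single genes did not always differ between domains as their list did. Of 17 adipocyte genes 10 were higher and 0 lower in ventral skin, with a median of 0.91 against 0.25 in dorsal skin, and the dorsal change lay below the ventral in 9. The adipocyte genes Retn and Car3 rose in ventral skin by 1.63 and 1.68, and the difference from the dorsal change was 0.07 ± 0.26 (adjusted p = 0.887) and -0.20 ± 0.39 (adjusted p = 0.762). In chin skin they fell by 1.58 and 1.15. Lor fell by 1.65 in ventral skin and differed from the dorsal change by -0.58 ± 0.48 (adjusted p = 0.391). Of 34 cell cycle genes 23 were higher in chin skin, with medians of 0.19 in dorsal, 0.26 in ventral and 0.52 in chin skin, and the dorsal change lay below the chin change in 12 and above it in 4. Mki67 was unlike the list, higher in ventral (0.48) and chin skin (0.31), and higher still in dorsal skin, by 1.10 (adjusted p = 3.55e-08) and 1.26 (adjusted p = 1.77e-09). Of the 17 pigment genes 10 were higher in chin skin and none passed in ventral skin. Dct differed from the ventral change by 0.89 (adjusted p = 0.00332) and from the chin change by 0.45 ± 0.23 (adjusted p = 0.111). Immediate early genes were lower in 8 of 13 cases in ventral skin, and in chin skin 2 were higher with none lower. Fgf5 did not differ past the threshold from the ventral (-0.67 ± 0.32, adjusted p = 0.116) or chin change (-0.12 ± 0.32, adjusted p = 0.79).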

How the data were processed

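Gene-level FPKM values were deposited by the authors, who sequenced SMART-seq2 libraries of microdissected whole skin (paired ends, total RNA with pre-amplification, no strand information) and quantified them on mm10 with RSEM 1.2.25, as listed in the submitters' processing notes. They also stated a correction for batch effects, with batches that the sources used here do not name. Whether the deposited values carry it was not tested. Of the low values used to estimate depth, 78.3% to 82.1% per library lay close to a whole number of read pairs. The depth was itself fitted to these steps. Their own fold changes were not used. Depth was read from the steps between low FPKM values, and 0 per-sample columns were left unmapped. Only genes that reached 0.5 FPKM in 2 or more of the 5 libraries were tested, on the log2(FPKM + 1) scale. limma 3.58.1 in R 4.3.3 with a variance trend was fitted to the 14 dorsal libraries as 6 stage groups, with catagen minus late anagen as the contrast and Benjamini-Hochberg adjustment. Differences between domains were contrasts in a fit of all 43 skin libraries. Where a symbol had several gene IDs, the ID with the highest mean was kept for the lists. Genes named are the 12 largest called increases and 12 largest decreases whose groups do not overlap and whose higher mean is at least 5 FPKM (leaving out Gm-number, Mir, Snor, n-R, Rn, mt-, Rik and pseudogene symbols), up to 4 most changed called members and the most abundant member of each list, a set of hair cycle genes named in any case, and by the same symbol rule the 3 largest differences between domains in each direction. The members and lists were chosen with earlier results of these data known. Further list members were named after their values were seen. Alternatives changed the pseudocount, the filter, the scaling, the libraries fitted, the replicate block and single libraries, and a spline correction for GC content and transcript length was chosen after seeing the data. The steps were tested on simulated data. Without strand, a gene and its antisense partner cannot be told apart, and keratin genes share reads with near copies. A result for 1 gene of the lists is not reported here.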

Additional observations from a re-analysis of the deposited data

Results flagged for a closer look

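The change from late anagen to catagen differed between dorsal and ventral skin in 5334 genes and between dorsal and chin skin in 7398 genes (limma interaction contrasts, adjusted p under 0.05). Against ventral skin the differences on the log2(FPKM + 1) scale were 9.66 for AC099934.1, 6.39 for Myh4 and 5.87 for Tnni2 on the higher side, and -4.66 for Krt80, -5.07 for Lypla2 and -7.50 for Rps12 on the lower side. Against chin skin they were 6.42 for Sln, 4.73 for Tcap and 4.48 for RP23-133N24.2, and -4.81 for Lypla2, -5.43 for Krt80 and -7.33 for Rps12. Myh4, Tnni2, Sln and Tcap are skeletal muscle genes. Rps12 was listed at 0 in both dorsal catagen libraries, so its difference depends on the pseudocount and is no measure of a fold. The difference for AC099934.1 had an SE of 3.63 (limma adjusted p = 0.0433), and its ventral change did not pass (adjusted p = 0.554). This gene was at 0, 0 and 25.8 FPKM in dorsal late anagen, so the size of its difference is uncertain too. AC099934.1 also spans fewer bases than the mean fragment estimated for the dorsal libraries compared, so its FPKM are unreliable.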

How the results depend on the processing

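Over all alternatives 6994 to 9514 genes passed, against 9483 of 16323 (58.1%) as reported. The lowest count came with a minimum of 5 FPKM, where fewer genes were tested, and was the highest share, 71.8% of 9735. With no filter on low values 9221 of 26394 genes passed (34.9%), the lowest share. When 1 late anagen library was left out, 8790 to 8851 genes passed. The differences between domains passed in 4265 to 5655 genes for ventral and in 5720 to 7615 genes for chin skin. Of 183 named results, the GC and length correction, chosen after seeing the data, left 157 on their side of the threshold, ended 19 calls, gave 3 and turned the sign of 4 that passed with or without it, with Krt33a at 0.25, Notum at 0.017, Smad2 at -0.27 and Tyr at -0.13. The cause was not tested. Leaving out catagen replicate 1 or 2 ended 12 and 15 calls. With 2 catagen libraries, small changes of genes near 1 FPKM are limited by depth.

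With the replicate number as a block 9461 genes passed. The deviations of same-numbered libraries correlated at -0.016 and -0.0085, and with 2 shared numbers and no label that ties them the numbers were not treated as pairs.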
